A study of Mus musculus with 23 samples.

Results

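Of the 23 hippocampal RNA-seq libraries of the series, 6 held little choroid plexus RNA, and this report sets these choroid-poor libraries against the 17 choroid-containing ones. The 6 were selected on the measured levels of choroid plexus markers, above all Ttr, Folr1 and Kl, so the gap in those genes is a property of the selection and not a result. The choroid plexus is a tuft of vascularised tissue in the brain ventricles, covered by an epithelium that secretes cerebrospinal fluid. Its epithelial cells pump ions and bicarbonate, take up folate and vitamins from blood, and release transport proteins such as transthyretin into the fluid. In the mouse the plexus of the lateral ventricle lies against the fimbria and the inner face of the hippocampus, so a dissected hippocampus can carry pieces of it.

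The series measured hippocampal mRNA of mice carrying the P301S tau transgene and of wild-type (WT) mice, on a mixed C57Bl6 and Balbc background. The transgene encodes human tau with a substitution known from inherited frontotemporal dementia. Mice of each genotype were exposed to hypoxia, which the series title names as chronic intermittent hypoxia, or kept in normoxia. There were 6 P301S hypoxia, 5 P301S normoxia, 6 WT hypoxia and 6 WT normoxia libraries. The promoter of the transgene, the age of the mice and the way the hippocampus was dissected were not stated in the sources used here. Sample titles carry numbers and suffixes of unstated meaning, which several WT libraries share, 2 choroid-poor ones among them, and which were not used here. The labels do not tie libraries to individual mice, and the spread behind each p-value is that between libraries, which may be technical. In bulk tissue, fewer cells of a type and less RNA per cell cannot be told apart.

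Choroid-poor libraries were 2 of 6 in P301S hypoxia (replicates 1 and 4), 0 of 5 in P301S normoxia, 3 of 6 in WT hypoxia (replicates 1, 4 and 5) and 1 of 6 in WT normoxia (replicate 4). Hypoxia held 5 of its 12 libraries in this class and normoxia 1 of its 11, a difference that did not pass Fisher's exact test (two-sided p = 0.155, adjusted over both factors 0.31). P301S held 2 of 11 and WT 4 of 12 (Fisher's exact p = 0.64, adjusted 0.64).

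Total counts were 19.1 to 25.4 M in the choroid-poor libraries and 22.8 to 25.8 M in the choroid-containing ones. Mitochondrial genes took 2.14 to 2.55% of counts in the choroid-poor libraries and 2.27 to 2.99% in the others, and 22548 to 23036 genes against 22869 to 23635 had at least 1 count. WT hypoxia replicate 1, a choroid-poor library, had the lowest total and stood apart from the other 5 in 16 of the 106 genes named by rule, among them Zic1, Calb1 and Pvalb. Calls and medians that turned on this library are given with and without it.

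Ttr encodes transthyretin, the carrier of thyroid hormone and retinol that choroid epithelium secretes (chromosome 18, 20665250 to 20674324, GRCm38). Its levels in CPM, counts scaled to library size, were 30.1 at the lowest, 63.7 at the median and 110.0 at the highest in the choroid-poor libraries, against 434.5, 2152 and 3176 CPM in the choroid-containing ones. The values of 110.0 and 434.5 CPM are those on either side of the boundary between the classes. Folr1, the folate receptor of the plexus (chromosome 7), had 0.294, 0.414 and 0.609 CPM in the choroid-poor libraries and 1.85, 8.94 and 16.1 CPM in the others. Kl, which encodes klotho, a co-receptor of fibroblast growth factors shed into cerebrospinal fluid (chromosome 5), had 20.8, 22.5 and 27.7 CPM in the choroid-poor libraries and 43.1, 121 and 181 CPM in the others. No choroid-poor library overlapped a choroid-containing one for any of the 3. None of the 3 was at 0: the choroid-poor mean was 3.45% of the choroid-containing mean for Ttr, 4.99% for Folr1 and 20.3% for Kl. Reads of Folr1 are uncertain, since 56.8% of its length is overlapped by other genes, Anapc15 the most. Reads over more than 1 gene were not counted.

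**Figure D1:**
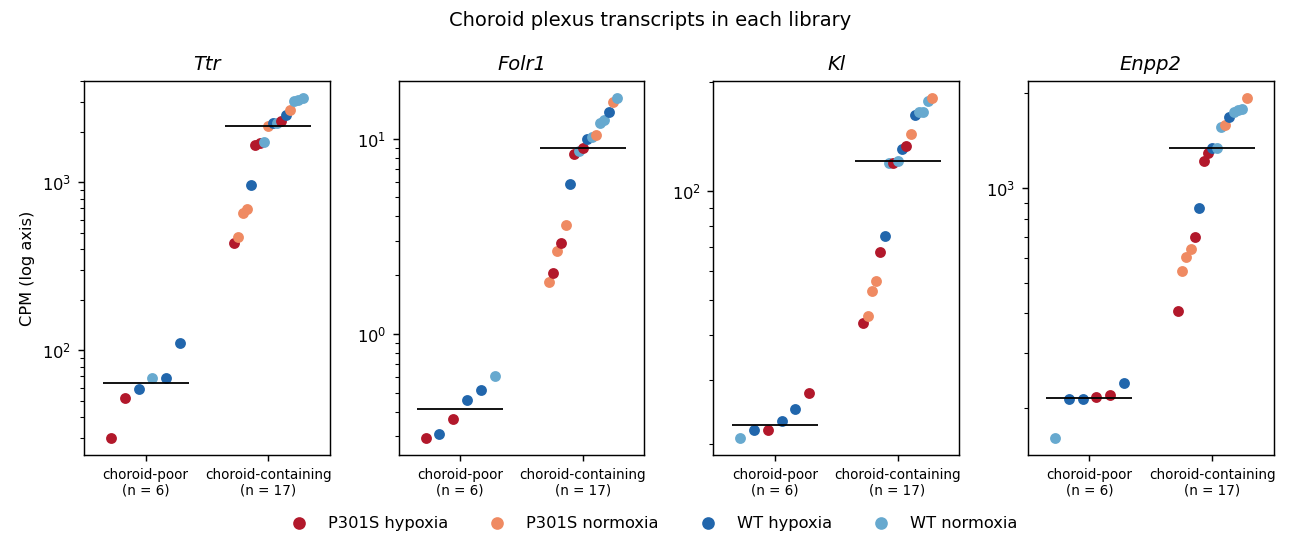
CPM on a log axis of Ttr, Folr1, Kl and Enpp2 in the 6 choroid-poor libraries (left of each panel) and the 17 choroid-containing ones (right), 1 point per library coloured by group, with the median of each class as a line. The 2 classes do not overlap in any panel, and within the choroid-containing class Ttr spans 434.5 to 3176 CPM.

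Because these markers set the classes, a gap in Ttr inside each group that held both follows from the selection. Its size is given as description. In P301S hypoxia, Ttr averaged 41.0 CPM in the 2 choroid-poor libraries and 1531 CPM in the other 4. In WT hypoxia it averaged 79.2 CPM in the 3 choroid-poor and 1913 CPM in the 3 choroid-containing libraries. In WT normoxia the single choroid-poor library had 68.4 CPM, against a mean of 2665 CPM in the other 5. The choroid-containing class was itself uneven. Its choroid score, the mean log2 CPM of Ttr, Folr1 and Kl minus the average of that mean over all 23 libraries, ran from -0.68 to 1.90, against -3.04 to -2.26 in the choroid-poor libraries. All 44 measured genes of 3 choroid lists together took 0.0665 to 0.0954% of counts in the choroid-poor libraries and 0.146 to 0.701% in the choroid-containing ones.

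The genes that followed the classes were next described with the 4 groups as a covariate. P301S normoxia held no choroid-poor library, so its 5 libraries add nothing to a fold and inform only the spread. CPM values beside the folds cover all 17 choroid-containing libraries. Fold changes are log2 values, choroid-poor minus choroid-containing, with their standard error (SE). In edgeR's quasi-likelihood test, 217 of 17788 genes were lower in the choroid-poor libraries at an adjusted p below 0.05, 1.22% of those tested, and 2 were higher, 0.0112%. All 6 choroid-poor libraries lay below all 17 others in 57 genes (0.32%), and above all of them in none (0.0%). Since choroid RNA chose the libraries, these counts describe the size of the class difference and are not a test of it. Of the 217 genes, 82 had a log2 fold below -2, 63 one between -2 and -1 and 72 one above -1. The choroid lists account for 38 of them, and the other 179 are in no choroid list. The count of lower genes was 237 without WT hypoxia replicate 1 and 63 without WT normoxia replicate 4, the only choroid-poor library in normoxia. Without the latter, the folds rest on the hypoxia groups, as they do in the fit of hypoxia libraries alone. Those alternatives are therefore not independent of each other.

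Genes of epithelial structure and identity were lower in 16 of 18 cases, with a median log2 fold of -2.74 against 0.01 over all tested genes. Tmem72, a membrane protein gene of choroid epithelium, had 0.246, 0.805 and 1.19 CPM (lowest, median, highest) in the choroid-poor libraries and 7.54, 56.1 and 80.4 CPM in the others, a log2 fold of -5.94 (SE 0.745). Cldn2, the claudin of leaky, cation-conducting tight junctions, had 0.440, 0.759 and 1.29 CPM in the choroid-poor libraries and 4.84, 21.4 and 33.5 CPM in the others (log2 fold -4.50, SE 0.637). For both genes every choroid-poor library was below every other library. Otx2, the homeodomain factor that specifies choroid epithelium, overlapped: it had 0.811, 1.74 and 4.55 CPM in the choroid-poor libraries against 3.45, 16.3 and 23.9 CPM in the others, with 1 choroid-containing library below the highest choroid-poor one. The keratin genes Krt8 and Krt18 had log2 folds of -2.66 and -3.16, and the roof plate factor Lmx1a one of -2.61. The claudin genes Cldn1 and Cldn3 were the members not called, at -1.32 and -1.06. Without WT hypoxia replicate 1, 15 of 18 were called, Rdh5 being lost (log2 fold -1.44, against -1.37 with all libraries). Without WT normoxia replicate 4, 11 of 18 were called and Otx2 was not (log2 fold -2.47).

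Genes of transport and fluid secretion were lower in 13 of 15 cases, with a median of -2.58. Slc4a5, a sodium bicarbonate cotransporter, had 0.574, 0.862 and 1.24 CPM in the choroid-poor libraries and 5.52, 34.4 and 61.0 CPM in the others (log2 fold -5.23, SE 0.694). Aqp1, the water channel of the apical membrane, had 0.410, 0.949 and 1.34 CPM in the choroid-poor libraries and 3.90, 21.0 and 37.7 CPM in the others (log2 fold -4.45, SE 0.708). Neither gene overlapped between the classes. Kcne2, a potassium channel subunit, had a log2 fold of -4.77, and Trpv4, an osmosensitive cation channel, one of -3.48. At the other end stood genes that neurons and glia also transcribe. Slc12a2, the sodium, potassium and chloride cotransporter NKCC1, averaged 80.2 CPM in the choroid-poor and 110 CPM in the choroid-containing libraries (log2 fold -0.42, not called). Slc29a4, a monoamine transporter, averaged 53.6 CPM in the choroid-poor and 72.0 CPM in the choroid-containing libraries (log2 fold -0.40, not called). Car12 and Slc4a2, a carbonic anhydrase and an anion exchanger, were called lower at -0.67 and -0.93. Without WT hypoxia replicate 1 the call of Car12 was lost (log2 fold -0.66) and Slc29a4 was called (log2 fold -0.46). Without WT normoxia replicate 4, 9 of 15 were called and Slc4a2 was not (log2 fold -0.81).

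Secreted and hormone-related genes were lower in 9 of 11 cases, with a median of -2.31. Enpp2 encodes autotaxin, a secreted enzyme that makes lysophosphatidic acid and is also made by oligodendrocytes. It had 161, 215 and 240 CPM in the choroid-poor libraries and 407.5, 1345 and 1933 CPM in the others, a log2 fold of -2.50 (SE 0.335). The choroid-poor libraries kept 17.1% of the mean of Enpp2, compared with 4.73% of F5, which encodes coagulation factor V. Igf2 had a log2 fold of -2.20 and Igfbp2 one of -2.01. Lepr and Htr2c, receptors for leptin and serotonin, were not called, at -1.12 and -0.72. Without WT normoxia replicate 4, 6 of 11 were called and Igf2 was not (log2 fold -1.96). Across the 3 choroid lists, 23 of 44 genes had every choroid-poor library below every other one, against the 0.32% of all genes given above. The 23 include Ttr, Folr1 and Kl, which also count among the lower genes of the transport and secreted lists. Because choroid markers chose the libraries, these shares follow from the selection and are not a test.

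**Figure D2:**
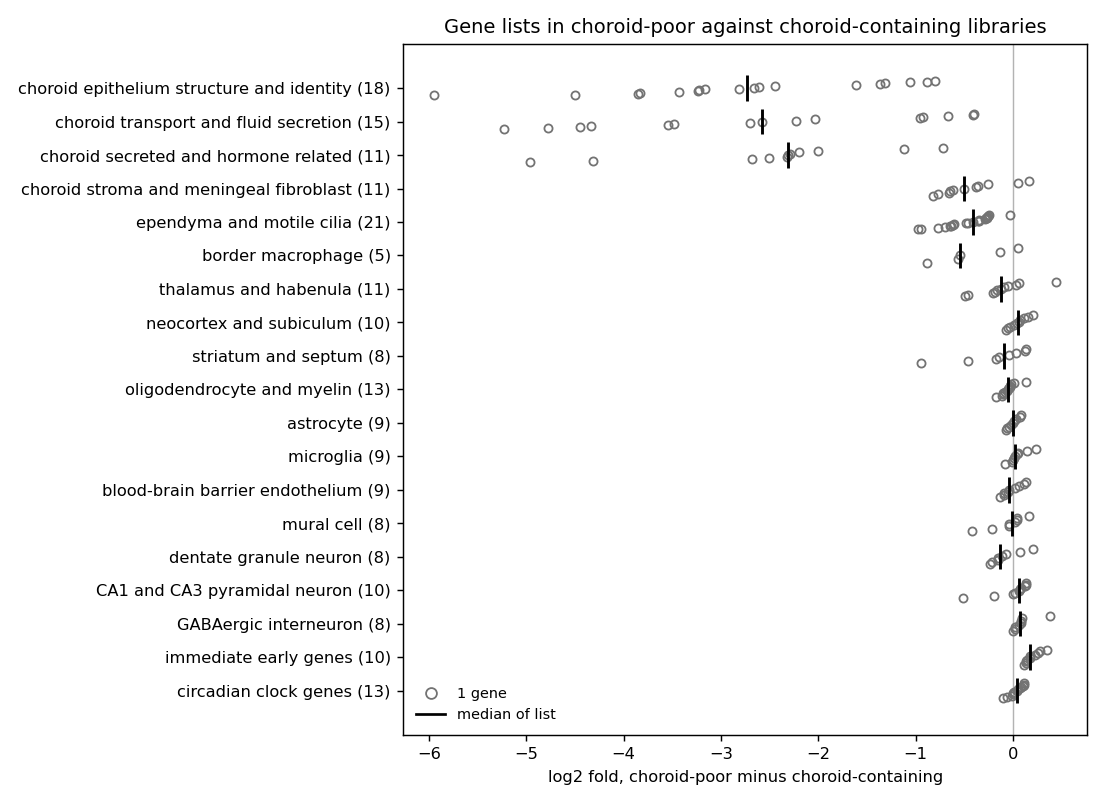
Log2 fold between choroid-poor and choroid-containing libraries for the tested genes of 19 lists, 1 point per gene, with the median of each list as a line and the number of genes in brackets. The medians of the 3 choroid lists are -2.74, -2.58 and -2.31, and those of neuron and glia lists are near 0.

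Promoter sequences, read from RefSeq (GRCm38.p6), are shown for members of these lists that hold GGATTA, the core that OTX factors and other bicoid-type homeodomains recognise, since Otx2 is itself among the lower genes. Each window runs from 250 bases before to 50 after the annotated start, and where a gene has several listed promoters the first was used. Promoters were found for 36 of the 44 choroid list genes, and 3 of them, 8.33%, held GGATTA on either strand, against 7.16% of all 27025 promoters. Counting any listed promoter of a gene, 5 of 36 (13.9%) held it, against 8.14% of genes. The 3 were Abca4 (chr3:122044210-122044509, plus strand), Ace (chr11:105967698-105967997, plus strand) and Car14 (chr3:95904636-95904935, minus strand). They encode a retinoid transporter, angiotensin-converting enzyme and a carbonic anhydrase, and their log2 folds were -2.58, -2.31 and -0.96. Of Ace, 80.6% of the gene's length is overlapped by other annotated genes, so its counts are uncertain. Capitals mark the motif, written TAATCC where it lies on the other strand.
Abca4: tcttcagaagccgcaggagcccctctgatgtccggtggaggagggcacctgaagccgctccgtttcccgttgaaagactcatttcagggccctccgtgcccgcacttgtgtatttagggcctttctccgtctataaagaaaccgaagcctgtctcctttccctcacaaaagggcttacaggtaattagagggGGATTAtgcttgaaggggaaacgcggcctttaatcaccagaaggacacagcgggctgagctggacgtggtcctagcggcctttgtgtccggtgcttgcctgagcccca
Ace: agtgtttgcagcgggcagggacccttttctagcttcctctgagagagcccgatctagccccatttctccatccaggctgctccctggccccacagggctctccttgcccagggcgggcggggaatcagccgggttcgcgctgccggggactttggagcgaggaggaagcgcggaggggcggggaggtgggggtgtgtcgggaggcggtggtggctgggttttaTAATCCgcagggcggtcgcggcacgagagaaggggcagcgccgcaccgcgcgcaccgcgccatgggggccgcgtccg
Car14: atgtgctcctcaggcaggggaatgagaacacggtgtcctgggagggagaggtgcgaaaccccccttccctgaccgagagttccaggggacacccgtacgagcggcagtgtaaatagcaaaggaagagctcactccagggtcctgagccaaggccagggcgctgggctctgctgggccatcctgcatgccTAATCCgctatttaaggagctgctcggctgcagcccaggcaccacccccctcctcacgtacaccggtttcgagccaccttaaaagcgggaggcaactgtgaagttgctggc

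Genes outside the choroid lists also separated the classes. Cdh3, which encodes P-cadherin, had 0 to 0.162 CPM in the choroid-poor libraries and 0.754 to 9.31 CPM in the others. Ins2, one of the mouse insulin genes, had 0 to 0.0820 CPM in the choroid-poor libraries and 0.159 to 4.06 CPM in the others. Each had every choroid-poor library below every other one, at counts near 0 in the choroid-poor class. Wdr86 had 0.325, 0.740 and 1.86 CPM in the choroid-poor libraries and 2.54, 12.7 and 21.5 CPM in the others. Its log2 fold was -3.98 (SE 0.617). The 2 genes called higher in the choroid-poor libraries moved little. Spry4, an inhibitor of receptor tyrosine kinase signalling, had 17.3 to 20.9 CPM in the choroid-poor libraries and 14.8 to 18.9 CPM in the others (log2 fold 0.26, SE 0.056). Its call was lost in 4 of 11 alternatives, among them leaving out WT normoxia replicate 4 or P301S hypoxia replicate 1. Hypoxia libraries alone, also among the 4, takes its fold from the same libraries as leaving out WT normoxia replicate 4. Gm5454, a predicted gene, had a log2 fold of 0.50 (SE 0.108). The number called higher was 0 to 8 with 1 choroid-poor library left out and 16 by DESeq2.

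A question the selection does not answer is which genes vary with the amount of choroid RNA among libraries that all contain it. The slope of each gene's log2 level on the choroid score was therefore fitted within the 17 choroid-containing libraries, with the 4 groups as a covariate. A slope of 1 means that a gene doubles when the score genes double. In edgeR's quasi-likelihood test, 350 of 17785 genes, 1.97%, had a positive slope at an adjusted p below 0.05, and 32 genes, 0.18%, a negative one. Of these 382 genes in all, 188 were also called without P301S normoxia replicate 4, where 190 genes were called. The negative count was less firm than the positive one. It was 10 to 18 when any 1 of WT hypoxia replicates 2 and 3, P301S normoxia replicates 3, 4 and 5 and P301S hypoxia replicate 6 was left out, 109 by DESeq2 and 122 without the group covariate. The median slope was 0.43 for the positive genes and 86 of them had a slope over 0.7. These libraries are also the comparison side of the fold changes above, so the fold and the slope of a gene are given side by side and are not independent.

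In the epithelial list, 17 of 18 genes had a positive called slope, against 1.97% of all genes, with a median of 0.87. In the transport list 11 of 14 and in the secreted list 9 of 9 did, the score genes left out, with medians of 0.81 and 0.84. The lists were chosen with earlier results of these data known, and the score is made of choroid markers. These shares describe the lists and are not an independent test. Tmem72 had a slope of 1.19 (SE 0.087, adjusted p = 2.93e-07) and Slc4a5 one of 1.15 (SE 0.063, adjusted p = 2.74e-09). Aqp1 had a slope of 1.26 (SE 0.069, adjusted p = 2.74e-09), and Otx2 one of 0.97 (SE 0.061, adjusted p = 1.35e-08). Enpp2 had a shallower slope of 0.79 (SE 0.033, adjusted p = 8.73e-11), and Car14 one of 0.31 (SE 0.051, adjusted p = 0.00107). The choroid list genes whose slope did not pass were Cldn3 (0.44, adjusted p = 0.199), Slco1a5 (0.66, adjusted p = 0.0545), Slc12a2 (0.16, adjusted p = 0.142) and Slc29a4 (0.12, adjusted p = 0.405).

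**Figure D3:**
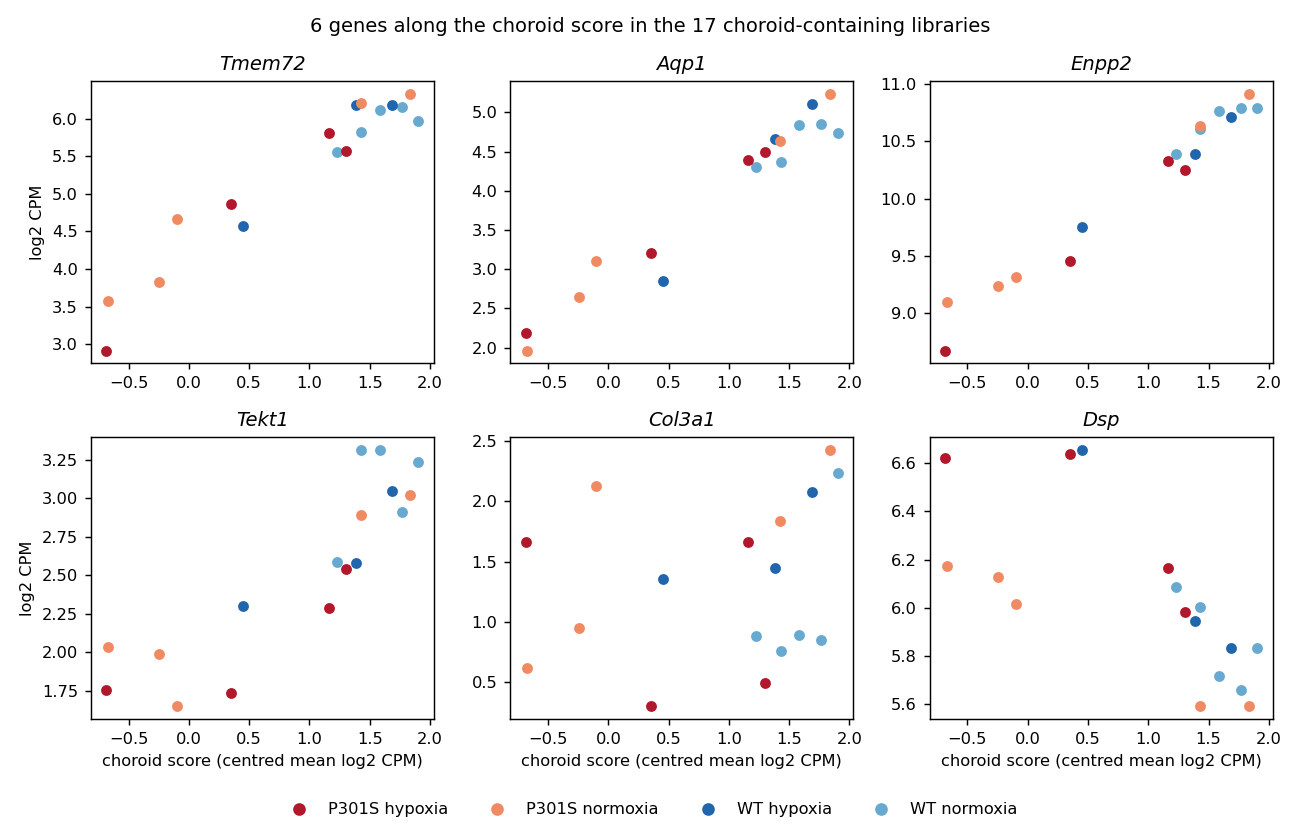
Log2 CPM of 6 genes against the choroid score, the mean log2 CPM of Ttr, Folr1 and Kl centred on the average of all 23 libraries, in the 17 choroid-containing libraries, 1 point per library coloured by group. Tmem72, Aqp1 and Enpp2 climb with the score (slopes 1.19, 1.26 and 0.79), Tekt1 climbs less steeply (0.48), Col3a1 scatters and Dsp descends (-0.33).

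The 2 genotypes covered different parts of the score. The 9 P301S libraries of this class ran from -0.68 to 1.83 and the 8 WT libraries from 0.45 to 1.90. Fitted within P301S alone, the median slopes of the epithelial, transport and secreted lists were 0.91, 0.82 and 0.82, and 268 genes were called. Fitted within WT alone they were 0.77, 0.80 and 0.77, and 10 genes were called. All choroid list genes outside the score had a positive slope in both genotypes, but most lost their call in WT alone. There 1 of 18 epithelial, 3 of 14 transport and 3 of 9 secreted genes were called, against 17, 12 and 8 in P301S alone. Tmem72 (slope 1.20) and Otx2 (0.80) were not called in WT libraries. Aqp1 had a slope of 1.21 in P301S libraries (adjusted p = 2.09e-07) and 1.51 in WT libraries (adjusted p = 0.0489), and Enpp2 had one of 0.80 in P301S libraries (adjusted p = 2.77e-07) and 0.71 in WT libraries (adjusted p = 0.0450). The difference between the genotypes was not tested.

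**Figure D4:**
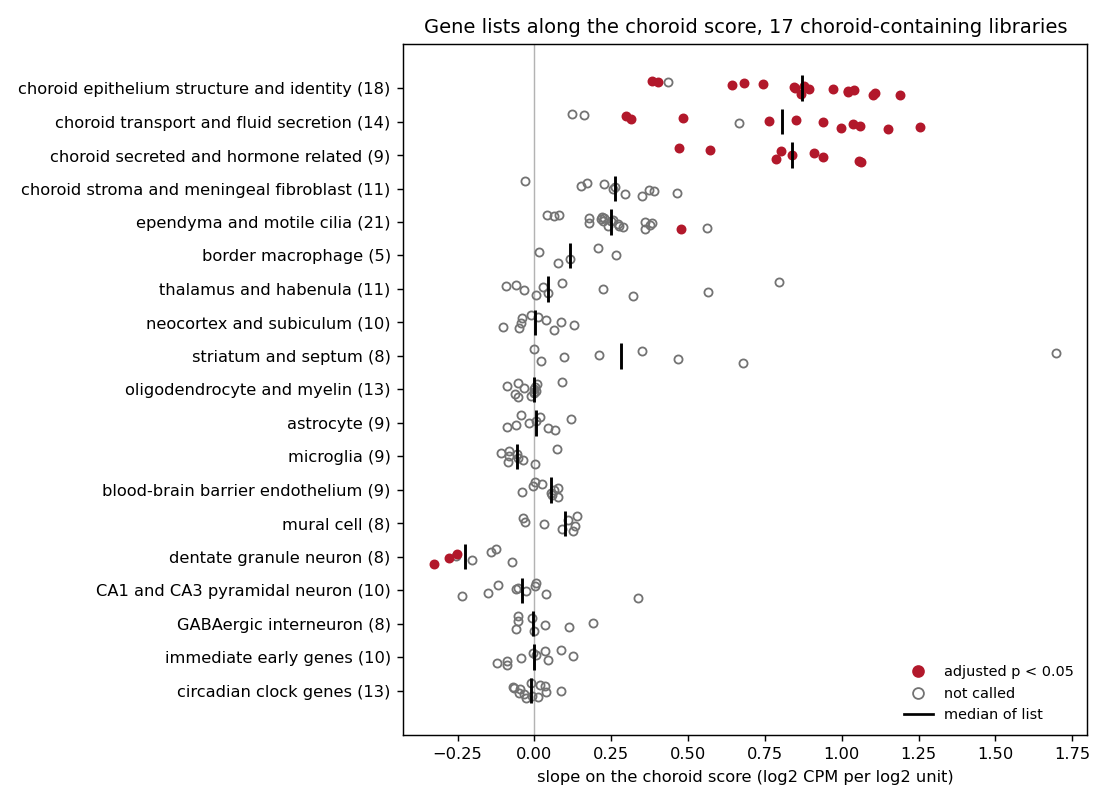
Slope on the choroid score within the 17 choroid-containing libraries for the tested genes of 19 lists, 1 point per gene, filled where the adjusted p is below 0.05, with the median of each list as a line and the number of genes in brackets (the 3 score genes left out). Filled points lie in the 3 choroid lists, in the ependyma list (1 gene) and, below 0, in the dentate granule list (3 genes).

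Tissue next to the plexus was then read through its own markers. Ependymal cells line the ventricle wall and carry motile cilia. All 21 ependyma and cilia genes had a negative fold in the choroid-poor libraries, with a median of -0.41, and none was called, against 1.22% of all genes. Tekt1, a tektin of ciliary microtubules, had 2.20, 2.91 and 4.39 CPM in the choroid-poor libraries and 3.14, 5.97 and 9.96 CPM in the others, so the classes overlapped. Foxj1, the master factor of motile cilia, ran from 6.86 to 13.3 CPM in the choroid-poor libraries and from 8.37 to 24.7 CPM in the others, with overlap as well. All 21 slopes within the choroid-containing libraries were positive, with a median of 0.25. Of the 21, 1 was called, Tekt1 (0.48, SE 0.082, adjusted p = 0.00203). In a short list this lies near the 1.97% of all genes called positive. Tekt1 was called in P301S libraries alone (slope 0.47) and not in WT libraries alone (slope 0.52). The ependyma median depended on the libraries: it was 0.32 in P301S libraries and -0.13 in WT libraries, where 16 of 21 slopes were negative. The fold median was -0.42 without WT hypoxia replicate 1 and -0.21 without WT normoxia replicate 4. In P301S hypoxia the summed CPM of the list was 174 and 118 in the choroid-poor libraries, within the 102 to 195 of the others. In WT hypoxia the sum was 86.3 to 140 in the choroid-poor and 149 to 216 in the other libraries. In WT normoxia it was 106 in the single choroid-poor library and 171 to 254 in the others.

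RFX factors drive cilia genes through sites built from GTTGCC. Of the 17 ependyma list genes with a RefSeq promoter (GRCm38.p6), 10, or 58.8%, held GTTGCC on either strand, against 12.7% of all promoters and 5 of the 36 choroid list promoters (13.9%). Counting any listed promoter, 10 of the 17 held it as well, against 14.1% of genes. The promoter of Tekt1, the ciliary gene with the called slope, is shown with its 2 matches in capitals, 1 of them read as GGCAAC on the other strand (chr11:72361833-72362132, minus strand).
Tekt1: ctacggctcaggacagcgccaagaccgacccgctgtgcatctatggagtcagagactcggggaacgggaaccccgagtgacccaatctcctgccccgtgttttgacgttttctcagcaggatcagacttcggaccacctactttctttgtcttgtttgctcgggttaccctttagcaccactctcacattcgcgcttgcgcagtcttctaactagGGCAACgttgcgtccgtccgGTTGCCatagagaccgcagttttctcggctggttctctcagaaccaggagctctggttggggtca

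Of all genes, 1.22% were called lower in the fold fit and 1.97% positive in the slope fit. Genes of choroid stroma and meningeal fibroblasts had 0 of 11 called in each fit, near those shares. Of their slopes, 10 of 11 were positive, with a median of 0.26. The median slope was 0.75 in WT libraries alone, where 11 of 11 were positive, and 0.19 in P301S libraries alone. None was called in either genotype. Their median fold was -0.51 with WT hypoxia replicate 1 and -0.79 without it. Col3a1, a fibrillar collagen gene, had 0.615, 1.26 and 4.39 CPM in the choroid-poor libraries and 1.23, 2.56 and 5.38 CPM in the others. Mgp, matrix Gla protein, had 3.02, 5.28 and 19.2 CPM in the choroid-poor libraries and 5.30, 10.1 and 24.7 CPM in the others. In both genes the highest choroid-poor value was that of WT hypoxia replicate 1. Without that library the fibroblast gene Islr was called (log2 fold -0.55, adjusted p = 0.0175). The 5 border macrophage genes had a median fold of -0.54 and none was called. Their median slope was 0.12, with 0.58 in WT libraries alone and 0.13 in P301S libraries alone, and none was called.

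Of all genes, 1.22% were called lower and 0.0112% higher in the fold fit, and 1.97% positive and 0.18% negative in the slope fit. In a short list 0 calls lie near those shares. Markers of neighbouring brain regions had no called member in either fit: thalamus and habenula 0 of 11, neocortex and subiculum 0 of 10, striatum and septum 0 of 8. Their median folds were -0.12, 0.05 and -0.09. Single libraries moved them: the thalamus median was -0.21 without WT hypoxia replicate 1 and 0.14 without WT normoxia replicate 4, and the striatum median 0.01 without the same WT normoxia library. Zic1, a factor of the medial habenula and septum, had 2.43, 7.56 and 102 CPM in the choroid-poor libraries and 4.23, 14.0 and 47.7 CPM in the others. The highest value belonged to WT hypoxia replicate 1, and the log2 fold was 0.45 with that library and -0.55 without it. Of the length of Zic1, 43.8% is overlapped by other genes, Zic4 the most, so its counts are uncertain. In the lists of oligodendrocyte, astrocyte, microglia, endothelial and mural cell genes no member was called in either fit, again near the shares of all genes. The median folds of these lists ran from -0.05 to 0.02. The oligodendrocyte median turned on 1 library: it was -0.05 with all libraries, where 11 of 13 genes had a negative fold, and 0.11 without WT normoxia replicate 4, where 13 of 13 had a positive one. The microglia median turned likewise, at 0.02 and -0.03. Median slopes of the mural list were 0.48 in WT libraries alone and 0.03 in P301S libraries alone. Those of the endothelial list were 0.20 and 0.01, and those of the other glial lists ran from -0.11 to 0.03.

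Of all genes, 1.22% were called lower and 0.0112% higher between the classes. No gene of the dentate granule, CA pyramidal or GABAergic lists was called, which in short lists is near those shares. The median folds of these lists were -0.13, 0.07 and 0.07. Without WT hypoxia replicate 1 the CA pyramidal gene Mpped1 was called higher (log2 fold 0.20, against 0.12 with all libraries). Calb1, a calcium buffer of granule cells, had 94.2, 97.3 and 218 CPM in the choroid-poor libraries and 75.0, 87.2 and 116 CPM in the others. Pvalb, the parvalbumin gene of fast-spiking interneurons, had 17.3, 23.5 and 72.0 CPM in the choroid-poor libraries and 15.7, 20.9 and 25.7 CPM in the others. WT hypoxia replicate 1 held the highest value of both. The log2 fold of Calb1 was 0.21 with it and 0.00 without it, and that of Pvalb 0.38 and 0.07. All 10 immediate early genes had a positive fold (median 0.17) and none was called. In the hypoxia libraries alone Egr1, an activity-induced zinc finger factor, was called higher (log2 fold 0.35, against 0.23 with all libraries). It was 1 of 2 genes called higher in that fit. Without WT normoxia replicate 4, where the folds rest on the same hypoxia libraries, 0 of the 10 immediate early genes were called.

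Along the score within the choroid-containing libraries, dentate granule genes ran the other way. All 8 had a negative slope, with a median of -0.23, and 3 were called, against 0.18% of all genes called negative. Dsp, desmoplakin, which granule cells express among hippocampal neurons, had a slope of -0.33 (SE 0.050, adjusted p = 0.000617). Prox1, the homeobox factor of granule cell identity, had one of -0.25 (SE 0.056, adjusted p = 0.0209), and Lct, the lactase gene, one of -0.28 (SE 0.067, adjusted p = 0.0377). The median was -0.20 in P301S libraries and -0.46 in WT libraries. Of the 8 genes, 1 was called in P301S libraries alone, 0 in WT libraries alone and 2 without P301S normoxia replicate 4. Dsp (slope -0.65) and Lct (-0.44) were not called in WT libraries alone. The choroid-poor libraries did not continue this line: Prox1 had 101, 116 and 147 CPM in them and 89.6, 114 and 178 CPM in the others, and Dsp had 36.8, 67.3 and 87.2 CPM in them and 48.2, 64.2 and 101 CPM in the others. The slope of Prox1 missed the threshold in 6 of 25 alternatives: in each genotype alone, with a score of Ttr alone, and without P301S normoxia replicate 3, P301S normoxia replicate 5 or P301S hypoxia replicate 6.

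The comparisons of the study were then read for the choroid lists. None of the 44 choroid list genes was called in any of the 4 comparisons. The shares of all genes called were 0.41% for hypoxia against normoxia in P301S, 0.0731% for hypoxia against normoxia in WT, 1.87% for P301S against WT in hypoxia and 6.35% for P301S against WT in normoxia. Group means differed with a wide spread. Ttr averaged 1034 ± 983 CPM in P301S hypoxia (SD, n = 6) and 1336 ± 1023 CPM in P301S normoxia (n = 5). In WT it averaged 996 ± 1136 CPM in hypoxia and 2232 ± 1202 CPM in normoxia (n = 6 each), a log2 fold of -1.16 with an SE of 1.05 (adjusted p = 0.71 in edgeR's quasi-likelihood test). Enpp2 averaged 759 ± 643 CPM in WT hypoxia and 1394 ± 627 CPM in WT normoxia (log2 fold -0.88, SE 0.644, adjusted p = 0.629). In both genes the SD within a group was close to the difference between the groups or above it.

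Leaving out the 6 choroid-poor libraries and adding the choroid score as a covariate changed the choroid medians in different ways. For hypoxia against normoxia in P301S the epithelial list had a median log2 fold of -0.46 with all 23 libraries, -0.06 without the 6 and 0.06 with the covariate. For hypoxia against normoxia in WT the 3 values were -0.83, -0.32 and -0.05. For P301S against WT in normoxia they were -0.55, -0.79 and -0.14, since the library left out of WT normoxia is the lowest of that group for Ttr. For P301S against WT in hypoxia they were -0.17, -0.45 and -0.06. The covariate is made from choroid genes, so it draws these medians towards 0 by construction.

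**Figure D5:**
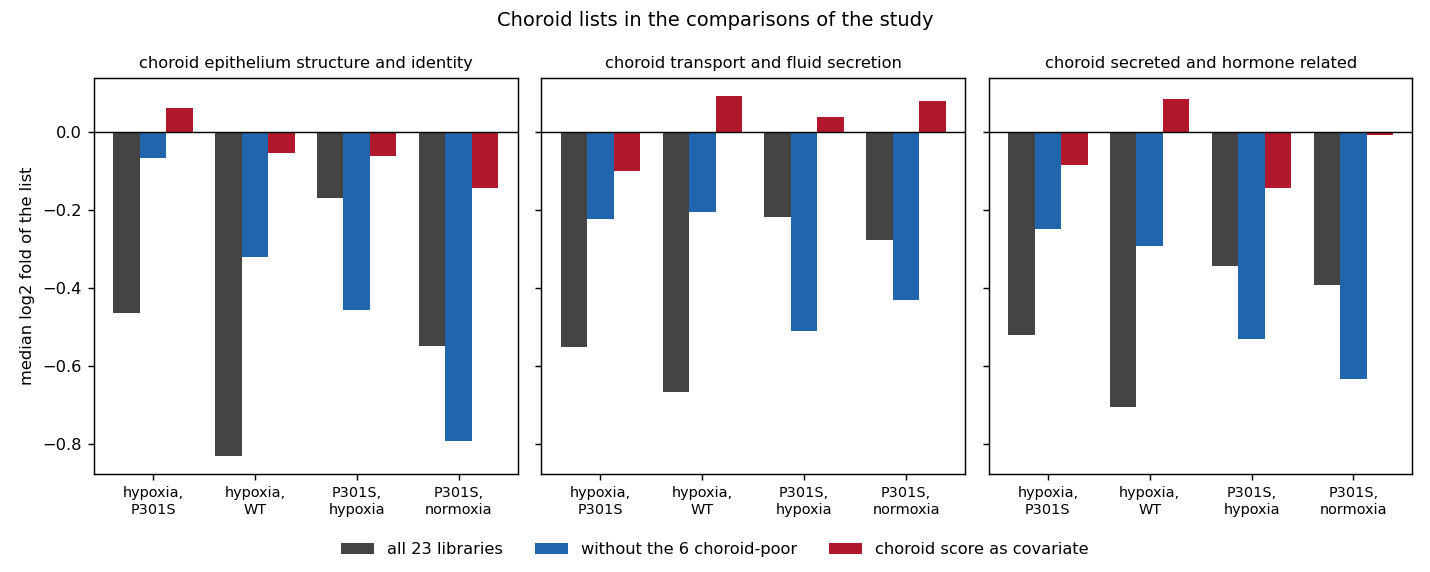
Median log2 fold of the 3 choroid lists in the 4 comparisons of the study (hypoxia against normoxia in each genotype, P301S against WT in each condition), with all 23 libraries, without the 6 choroid-poor ones and with the choroid score as a covariate. For hypoxia in WT the epithelial median is -0.83, -0.32 and -0.05, and for P301S in normoxia -0.55, -0.79 and -0.14.

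The number of genes called in the study comparisons also moved. For hypoxia against normoxia in P301S, 73 genes were called with all libraries, 47 without the 6 choroid-poor ones and 49 with the covariate. For hypoxia in WT, edgeR called 13 genes with all libraries, none without the 6, where 998 had an unadjusted p below 0.05, and 13 with the covariate. For P301S against WT, the counts were 333, 16 and 408 in hypoxia and 1130, 421 and 1147 in normoxia. Leaving libraries out also makes the groups smaller, down to 3 in WT hypoxia, while the covariate keeps all of them. With any 1 library of the compared groups left out, the counts ran from 2 to 156 for hypoxia in P301S, 2 to 29 for hypoxia in WT, 94 to 618 for P301S in hypoxia and 381 to 2103 for P301S in normoxia. Bsg, which encodes basigin, a chaperone of lactate transporters abundant in choroid and endothelium, was called for P301S against WT in normoxia. It averaged 283 ± 33.3 CPM in P301S normoxia (n = 5) and 373 ± 39.3 CPM in WT normoxia (n = 6), a log2 fold of -0.40 (adjusted p = 0.0248). Its slope on the choroid score was 0.15 (adjusted p = 0.0189), and its fold was -0.45 without the 6 libraries (adjusted p = 0.0198) and -0.36 with the covariate (adjusted p = 0.00226). Clba1, a clathrin-binding protein gene, had a fold of -0.44 (adjusted p = 0.0260) and a slope of 0.20 (adjusted p = 0.0364), and its fold was -0.44 without the 6 libraries (adjusted p = 0.0627) and -0.42 with the covariate (adjusted p = 0.0207). Neither gene held in every alternative: the slope call was lost in 5 of 25 for Bsg and 13 of 25 for Clba1, and the P301S call in 4 of 16 and 5 of 16. Bsg was also called lower between the classes, a call lost in 7 of 11 alternatives. Cldn34c1, named by the same rule, had a negative slope. Its slope call was lost in 8 of 25 alternatives and its P301S call in 9 of 15.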

How the data were processed

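RNA from whole hippocampus of 23 libraries was analysed. The deposited values are unnormalised counts that the authors obtained with featureCounts 1.6.2, per the file headers. Read pairs were assigned to entire gene bodies of Ensembl release 90 (GRCm38), introns included, with no strand setting. The submitters' processing notes name HISAT2, mm10 and DESeq2 1.6.3. Without strand, reads of a gene and an overlapping one cannot be told apart, and reads over several genes were dropped. Symbols came from GENCODE M21 (52403 of 52636 genes).

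The choroid-poor class and the gene lists were chosen with earlier results of these data known. Genes with a minimum count of 10 by filterByExpr were kept (17788), scaled by TMM and tested in edgeR 4.0.16 under R 4.3.3 with its quasi-likelihood test, robust and two-sided, called at a Benjamini-Hochberg adjusted p below 0.05. The choroid score is the mean log2 CPM (prior count 2) of Ttr, Folr1 and Kl, centred on its average over all 23 libraries. SEs were derived from the fold and its F statistic. Fisher's exact test used scipy 1.17.1. DESeq2 1.42.0, RLE scaling, no filter, other scores, no group covariate and left-out libraries were tried as alternatives. The fits were also run on simulated counts with the same dispersion for all genes, no group differences and no library apart. That simulation cannot show how the fits behave when single libraries stand apart, and nothing is concluded from it.

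Genes were named by a rule: the 3 score genes, up to 4 of each of the 19 lists with the largest fold at a mean of at least 1 CPM, up to 12 other called genes with the largest fold in each direction, up to 10 with the lowest p of the slope in each direction, and up to 6 per study comparison that also had a called slope. Other genes named were chosen after their values were seen. Of 223 list entries, 207 were tested. Replicates are numbered in accession order, which only names a library. Total counts of 19.1 to 25.8 M set the precision.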

Additional observations from a re-analysis of the deposited data

Results flagged for a closer look

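Among the 6 choroid-poor libraries, 23 of the 106 genes named by rule had 1 library farther from the other 5 than Dixon's test allows at its 95% level. Chance sets off that test in about 5% of groups of samples, and genes of 1 library are not independent. WT hypoxia replicate 1 accounted for 16 of the 23. It was highest for stromal and meningeal genes, with 4.39 CPM of Col3a1, 11.8 CPM of Slc22a6, 19.2 CPM of Mgp and 13.9 CPM of Aldh1a2, against class medians of 1.26, 2.06, 5.28 and 3.40 CPM. It was also highest for the border macrophage receptor Mrc1 (3.05 CPM), the pericyte gene Vtn (70.3 CPM) and Zic1 (102 CPM). Of neuronal genes it had 218 CPM of Calb1, 66.5 CPM of Plk5 and 72.0 CPM of Pvalb, each the highest, and 17.6 CPM of the interneuron factor Lhx6, the lowest. It had the highest Cry1 (21.0 CPM), a clock repressor, and the lowest Fgfr3 (112 CPM), a receptor of astrocytes. Of genes that follow the plexus it had the highest Wdr86 (1.86 CPM), Col8a2 (5.27 CPM) and Igfbp2 (25.0 CPM).

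WT normoxia replicate 4 was lowest for Enpp2 (161 CPM), the myelin gene Mog (36.2 CPM) and Npnt (28.4 CPM), and highest for the microglial gene Aif1 (13.2 CPM). P301S hypoxia replicate 1 was lowest for Ppp1r1b (4.18 CPM), overlapped by other genes over 75.4% of its length, and for the mural gene Notch3 (7.75 CPM). WT hypoxia replicate 5 was lowest for Per1 (95.9 CPM).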

How the results depend on the processing

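The choroid-poor contrast called 219 genes; DESeq2 called 374, hypoxia libraries alone gave 129, and leaving out 1 choroid-poor library gave 63 to 245. The slope called 382; without the group covariate it called 667, in WT libraries alone 10, and with 1 library left out 190 (without P301S normoxia replicate 4) to 416. Hypoxia against normoxia in P301S called 73 genes, 47 without the 6 choroid-poor libraries, 363 by DESeq2, 38 without the filter on low counts and 2 to 156 with 1 library left out. In WT it called 13, with 0, 151 and 4 under the same settings and 2 to 29 with 1 library left out. P301S against WT called 333 in hypoxia, with 16, 854 and 213 under those settings and 94 to 618 with 1 left out. In normoxia it called 1130, with 421 without the 6, 682 without the filter and 381 to 2103 with 1 left out. The cause of these moves was not tested. Counts under the other settings stayed within 1.5 times the reported ones. Sign changes of called values were counted among the 106 genes named by rule. Of their slopes and folds called with all libraries, only the slope of Cldn34c1, a claudin-like gene at 0 to 5.45 CPM, changed sign. It was -4.49 with and 0.34 without the group covariate. Called genes outside that set were not checked by this count. Some uncalled values changed sign as well, such as the fold of Zic1 without WT hypoxia replicate 1 and 16 of 21 ependyma slopes in WT libraries alone. Splitting the slope by genotype was chosen after seeing the data. No paired analysis was possible because the labels carry no replicate number shared between groups. Genes near 1 CPM rest on few counts in the choroid-poor libraries, which limits their folds.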

Other observations

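Some genes known as choroid markers could not be measured. Kcnj13, the inward rectifier potassium channel of the apical membrane, had 0 counts over all 23 libraries. Other genes, Gigyf2 the most, overlap 100% of its length. Mfrp and Slc16a8, a frizzled-related membrane protein and a lactate transporter, also had 0 counts, with 100% of their length under other genes. Reads over more than 1 gene were not counted, so these zeros are not levels. Of the 217 genes lower in the choroid-poor libraries, 9 are overlapped by other genes over more than 50% of their length, as are 822 of all tested genes.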
